A study of Mus musculus with 4 samples.

Results

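The interleukin-1 (IL-1) system was followed through 10 genes of the 32285 in the RNA tables: the ligand genes Il1a, Il1b and Il18, the antagonist gene Il1rn and the IL-18 binding protein gene Il18bp, the receptor genes Il1r1 and Il1rap, the decoy receptor gene Il1r2, and the inflammasome genes Nlrp3 and Casp1. They were taken as a family by name, and every open chromatin peak within 10 kb of a start site of one of them was added, which gave 51 of the 127216 peaks found in both libraries. Liver cells of male young adult C57BL/6J mice had been sorted as living CD45+ CD64- CD11c+ cells, and RNA and open chromatin were read from the same nuclei (10x Multiome). The mice received DDC in their chow, at a strength of 0.1%, for 0 days (D0) or 5 days (D5). DDC stands for 3,5-diethoxycarbonyl-1,4-dihydrocollidine, a compound that inflames the bile ducts. The series holds 4 samples, which are the RNA and the chromatin layer of 1 library per day. The number of animals behind each library is not given in the sources used here.

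IL-1α and IL-1β are the classic alarm cytokines of myeloid cells and signal through IL-1R1 once the accessory chain IL-1RAP has joined it. IL-1β and IL-18 are made as inactive precursors, which caspase-1 cuts after NLRP3 or another sensor has assembled an inflammasome. The system carries its own brakes: the antagonist encoded by Il1rn occupies IL-1R1 without signalling, IL-1R2 captures IL-1 but lacks a signalling domain, and IL-18BP captures IL-18. In the liver, myeloid cells are known as main producers of these cytokines, and dendritic cells use them to instruct T cells.

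RNA of called barcodes came to 44496348 unique molecular identifiers (UMIs) at D0 and 94374499 at D5, with medians of 1799 and 2790 UMIs per barcode. After removal of barcodes with under 1000 UMIs, over 10% mitochondrial UMIs or a doublet score of at least 0.2, 10980 nuclei remained at D0 and 19834 at D5. They were clustered without the 10 genes and named from marker genes. Names end in "-like", since the markers are their sole basis and may differ from the names the study gave. Type 2 conventional dendritic cell-like (cDC2-like) nuclei numbered 2185 and 9411, type 1 (cDC1-like) nuclei 1561 and 2854, and mature Ccr7+ DC-like nuclei 305 and 1027. Although the gate excluded CD64+ cells, 790 and 1393 nuclei carried macrophage markers, with 7 of 9 raised and C1qa and C1qb among the leading genes. In the same cluster 5 of 7 classical monocyte, 3 of 7 nonclassical monocyte and 4 of 9 cDC2 markers were raised, so the name macrophage-like does not separate it from these cells. Plasmacytoid (pDC-like), natural killer (NK cell-like) and T cell-like nuclei were also present in the CD11c+ gate. The 2 libraries shared 591 called barcodes, 3.63% of those at D0. Within the cDC2-like nuclei, precursor-like (preDC-like) nuclei were led by Gria3, Cyp7b1 and Ly6c2, Clec10a+ nuclei by Mir155hg, Gadd45b and Ccl22, Lzts1+ nuclei by Dscam and Lzts1, and Sirpb1a+ nuclei by the heat shock genes Hspa1a and Hspa1b beside Sirpb1a. Against the other cDC2 states, preDC-like nuclei raised 6 preDC markers and also 6 pDC markers, and Siglech and Tcf4 are on both lists. The name preDC-like therefore does not separate them from pDCs by markers alone. The name Clec10a+ does not mark 1 state alone, since 3 of 5 Clec10a+ markers were raised in the Clec10a+ and 4 of 5 in the Sirpb1a+ nuclei, with sums of 1949 and 1413 CPM at D0 and 1498 and 1222 CPM at D5. Il1r2 itself was the 10th leading gene of the Lzts1+ nuclei although it was not used to draw them. At D0 these states held 192, 997, 282 and 653 nuclei, and at D5 they held 1474, 3065, 2510 and 1922.

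Levels are given as UMIs of a gene per 1000000 UMIs of a class (counts per 1000000, CPM), and ratios as log2 with 95% exact intervals that cover counting error only. With 1 library per day no spread between replicates exists, so no test was run, and a difference between the days cannot be told apart from a difference between 2 libraries. A gene counts as measured in a comparison with at least 20 UMIs over both sides, and as higher or lower when its interval excludes 0. Free RNA was read from barcodes that were not called as cells and is given beside the genes it touches. The share of a class that free RNA could make up at most, set by the level at which hepatocyte markers would reach 0, was up to 69.2% in cDC2-like nuclei over both days, and at D0 and D5 it was 76.5% and 68.5% in Clec10a+, 40.7% and 40.9% in preDC-like and 25.2% and 31.1% in cDC1-like nuclei.

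Promoters of the genes are shown first for the sequence features at their start sites, since peaks there are compared further on. All 10 genes had a RefSeq promoter (build GRCm38.p6, the same coordinates as the mm10 build of the files), with 14 start sites in all, of which 12 lay in a peak of both libraries. The 250 bases before a start site were searched on both strands for TATAAA (the TATA box), TGANTCA (the AP-1 motif), the kappaB motif and GAGGAA (the core of the PU.1 motif), which do not overlap here. Of all 32851 promoters in the table, 12.4%, 6.75%, 3.90% and 23.3% held the respective motif, against 3, 2, 2 and 3 of the 14. A match is a description of letters, not of binding. The ligand genes Il1b and Il1a are printed for their TATA boxes, both about 30 bases before the start, Il1r1 and Nlrp3 for a kappaB match on the minus strand, and Il1r2 as a window without any of the 4. The Il1b promoter is chr2:129371140-129371389 on the minus strand, that of Il1a chr2:129309973-129310222 on the minus strand, and those of Il1r1, Nlrp3 and Il1r2 are chr1:40266336-40266585, chr11:59541319-59541568 and chr1:40085843-40086092 on the plus strand. All are written 5′ to 3′ along the gene with the motif matches in capitals, and the RefSeq start of Il1r2 lies 1395 bases downstream of the one in the files.
Il1b: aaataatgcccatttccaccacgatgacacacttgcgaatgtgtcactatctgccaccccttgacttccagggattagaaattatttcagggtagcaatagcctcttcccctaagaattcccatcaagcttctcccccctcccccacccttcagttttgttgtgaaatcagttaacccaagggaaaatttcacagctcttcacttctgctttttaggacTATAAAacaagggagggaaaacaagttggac
Il1a: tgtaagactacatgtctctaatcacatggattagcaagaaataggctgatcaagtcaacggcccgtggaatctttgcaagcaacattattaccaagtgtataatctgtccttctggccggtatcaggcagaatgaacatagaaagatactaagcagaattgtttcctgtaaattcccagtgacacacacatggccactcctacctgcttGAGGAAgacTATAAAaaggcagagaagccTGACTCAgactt
Il1r1: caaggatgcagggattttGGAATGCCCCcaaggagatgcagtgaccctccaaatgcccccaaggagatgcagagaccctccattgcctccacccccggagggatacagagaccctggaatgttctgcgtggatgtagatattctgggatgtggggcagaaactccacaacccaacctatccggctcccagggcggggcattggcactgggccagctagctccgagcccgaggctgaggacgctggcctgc
Nlrp3: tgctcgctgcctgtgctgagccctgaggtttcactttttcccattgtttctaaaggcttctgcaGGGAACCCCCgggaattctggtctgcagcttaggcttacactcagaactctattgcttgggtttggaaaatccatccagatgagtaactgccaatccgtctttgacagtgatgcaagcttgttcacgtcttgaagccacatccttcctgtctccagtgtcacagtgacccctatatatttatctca
Il1r2: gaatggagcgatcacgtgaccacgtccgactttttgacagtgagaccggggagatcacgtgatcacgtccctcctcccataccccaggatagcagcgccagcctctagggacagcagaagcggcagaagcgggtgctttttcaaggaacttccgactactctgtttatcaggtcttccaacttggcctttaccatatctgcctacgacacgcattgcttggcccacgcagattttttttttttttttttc

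Il1b, the gene of IL-1β, was read in every class, and its level divided them. The Clec10a+ level was 4430 CPM (4340 to 4522) at D0 and 4004 CPM (3964 to 4045) at D5, and 95.2% and 95.4% of them held at least 1 Il1b UMI. Among the cDC2 states named above, Lzts1+ nuclei followed with 1782 and 2085 CPM, Sirpb1a+ nuclei with 1038 and 709 CPM, and preDC-like nuclei with 412 and 655 CPM. Macrophage-like nuclei had 2297 and 1990 CPM, and 89 neutrophil-like nuclei at D5 had 5411 CPM (5075 to 5763) from 968 UMIs. At D5 the interval of Gzmc+ cDC2-like nuclei (2090 CPM) overlapped those of Lzts1+ and of macrophage-like nuclei, which did not overlap each other. Overlap was also found for nonclassical monocyte-like (1175 CPM) with Ccr7+ DC-like nuclei (1132 CPM) and cDC1-like (726 CPM) with Sirpb1a+ nuclei. The cDC2-like nuclei as a whole held 49.5% of all Il1b UMIs with 18.6% of all UMIs at D0, and 69.0% with 48.4% at D5. Il1b is not a typical product of NK cells, pDCs or T cells, in whose nuclei its level was 260, 203 and 275 CPM at D0 and 412, 357 and 403 CPM at D5, while free RNA held 1413 and 1770 CPM. The preDC-like levels thus stood above those of NK cell-like nuclei and below free RNA. With each nucleus thinned to 1000 UMIs, 24.5% and 36.6% of preDC-like nuclei held an Il1b UMI (37.5% and 60.0% unthinned, at medians of 1712 and 2455.5 UMIs), against 20.2% and 30.8% of NK cell-like nuclei (26.5% and 48.7%, at 1220 and 1733.5 UMIs).

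Il1r2, the decoy receptor gene, was also read at high level in cDC2-like nuclei but was ordered differently across the states. Its level was highest in Lzts1+ nuclei, with 1626 CPM at D0 and 1846 CPM at D5, followed by Clec10a+ nuclei with 1086 and 1046 CPM. Sirpb1a+ nuclei had 793 and 354 CPM, and preDC-like nuclei 206 and 434 CPM. Outside the cDC2-like nuclei, an unnamed cluster of 380 and 448 nuclei led by Adgrl3, Frmd5 and Adam23 had 2686 and 2050 CPM, and neutrophil-like nuclei had 2895 CPM at D5. The unnamed cluster raised 4 of 9 cDC2 markers, against 5 or 6 of 9 in the clusters named cDC2. Markers therefore do not clearly separate it from cDC2-like nuclei. The cDC1-like nuclei had 173 and 132 CPM, and NK cell-like nuclei 53.3 and 92.9 CPM, with 243 and 334 CPM in free RNA. At D5 the intervals of neighbours overlapped from preDC-like over macrophage-like (399 CPM) and Ccr7+ DC-like (372 CPM) to Sirpb1a+ nuclei. Thus the Lzts1+ and Clec10a+ levels stood above free RNA on both days, whereas the preDC-like level overlapped it at D0 (161 to 260 against 224 to 263 CPM) and stood above it at D5.

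The decoy was set against its ligand through the share of Il1r2 in the summed Il1b and Il1r2 UMIs, a quantity that no scaling between libraries can move. It was 19.7% (19.0 to 20.4) in Clec10a+ nuclei at D0 and 20.7% (20.3 to 21.1) at D5. In Lzts1+ nuclei it was 47.7% (45.4 to 50.0) and 47.0% (46.4 to 47.5), so the states differed by more than their intervals on both days. Within each state the intervals of the days overlapped, in Clec10a+ nuclei only at their ends, and overlap does not show that the days were equal. In preDC-like nuclei the share was 33.3% at D0 and 39.8% at D5, with overlapping intervals. The share was lower at D5 in Sirpb1a+ nuclei (43.3% and 33.3%) and cDC1-like nuclei (25.5% and 15.4%), and higher in Ccr7+ DC-like nuclei (15.8% and 24.7%). Free RNA had 14.7% and 15.9%, and the unnamed cluster had 69.7% and 59.5%, above each cDC2 state.

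**Figure D1:**
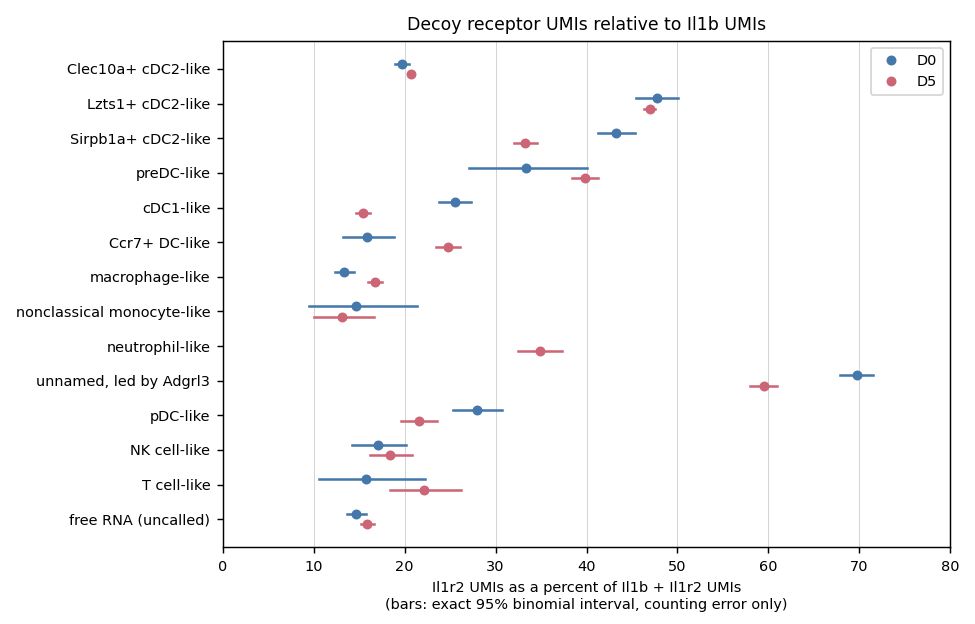
Share of Il1r2 among the summed Il1b and Il1r2 UMIs of each class (percent), at D0 and D5, with 95% exact intervals for counting error. Lzts1+ nuclei sit at 47.7% and 47.0%, Clec10a+ nuclei at 19.7% and 20.7%, and free RNA at 14.7% and 15.9%.

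Il1a, the second ligand gene, was sparse and concentrated in the Clec10a+ state. Its Clec10a+ level was 44.0 CPM at D0, and 18.6 CPM at D5, from 91 and 175 UMIs, and these nuclei so held most of the 102 and 206 UMIs of all cDC2-like nuclei. Macrophage-like nuclei had 19.4 and 7.26 CPM, and neutrophil-like nuclei 134 CPM at D5. No UMI was found in preDC-like nuclei at D0, which allows a level of up to 8.70 CPM, and 2 were found at D5. Free RNA had 6.97 and 3.34 CPM, above the levels of cDC1-like nuclei (6.14 and 1.51 CPM), with overlapping intervals on both days.

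Il18, whose product acts on NK and T cells, had its highest level among the dendritic cell classes in cDC1-like nuclei, with 53.3 CPM (46.0 to 61.5) at D0 and 38.0 CPM (34.2 to 42.2) at D5. The cDC2-like nuclei had 21.3 and 12.6 CPM. Those levels lay below free RNA, which had 28.6 and 14.1 CPM, but the intervals overlapped on both days. The cDC1-like levels lay above free RNA on both days.

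Il1rn, the antagonist gene, was read mostly in macrophage-like nuclei at D0, with 110 CPM (94.7 to 128) at D0 and 38.7 CPM (33.0 to 45.2) at D5, from 176 and 160 UMIs. These nuclei held 57.0% of all Il1rn UMIs at D0 and 33.5% at D5. Ccr7+ DC-like nuclei had 47.1 and 22.0 CPM, and neutrophil-like nuclei 246 CPM at D5 from 44 UMIs. In contrast, the level was 13.1 and 11.3 CPM in Clec10a+ nuclei and 1.85 and 4.34 CPM in Lzts1+ nuclei, and cDC1-like nuclei showed 2.23 and 1.19 CPM, with 19.4 and 8.34 CPM in free RNA. Levels in the cDC2 states at D0 therefore did not exceed free RNA.

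Il18bp, the gene of the IL-18 binding protein, had few UMIs in every class. Leaving out 34 endothelial-like nuclei, its highest levels were in Ccr7+ DC-like nuclei, with 11.8 and 6.63 CPM, and macrophage-like nuclei, with 8.15 and 4.36 CPM. The cDC2-like nuclei had 2.09 and 1.31 CPM, below the 3.87 and 2.60 CPM of free RNA, with overlapping intervals on both days.

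Il1r1, the signalling receptor gene, was highest, among the cDC2 states, where the ligand genes were low. The preDC-like nuclei had 14.5 CPM (4.71 to 33.9) at D0 and 14.2 CPM (10.8 to 18.4) at D5, from 5 and 57 UMIs. Clec10a+ nuclei had 1.45 and 1.59 CPM from 3 and 15 UMIs, and Lzts1+ nuclei 0 CPM at D0, which allows up to 5.56 CPM, and 1.82 CPM at D5. Ccr7+ DC-like nuclei had 1 UMI at D0 and 33 UMIs at D5, or 11.5 CPM (7.93 to 16.2), and pDC-like nuclei had 6.93 and 4.73 CPM. With 0.774 and 0.927 CPM in free RNA, the D5 levels of preDC-like, Ccr7+ DC-like and pDC-like nuclei stood above it.

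Il1rap, the gene of the shared accessory chain, was more even. It had 55.1 and 51.3 CPM in Clec10a+ nuclei, 38.9 and 47.2 CPM in Lzts1+ nuclei, and 46.4 and 37.2 CPM in preDC-like nuclei, with 9.29 and 9.27 CPM in free RNA. The cDC1-like level was 40.5 and 30.8 CPM, and that of Ccr7+ DC-like nuclei 7.36 and 12.6 CPM. Sirpb1a+ nuclei had 10.3 CPM at D0 from 13 UMIs and 24.6 CPM at D5 from 131 UMIs.

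Nlrp3, the sensor gene, was highest in the same cDC2 state as Il1b, with 247 and 235 CPM in Clec10a+ nuclei, 189 and 180 CPM in Lzts1+ nuclei, 131 and 71.1 CPM in Sirpb1a+ nuclei and 46.4 and 75.2 CPM in preDC-like nuclei, the last 2 states overlapping at D5. Macrophage-like nuclei had 161 and 158 CPM and NK cell-like nuclei 9.88 and 14.9 CPM. Casp1, the gene of the protease that cuts IL-1β and IL-18, differed less between most classes, with 56.8 and 48.4 CPM in cDC2-like, and 58.8 and 47.8 CPM in NK cell-like nuclei. The cDC1-like level of Casp1 was 28.8 and 25.1 CPM. Free RNA had 50.7 CPM of each of both genes at D0, and 54.9 CPM of Nlrp3 and 41.3 CPM of Casp1 at D5. Nlrp3 in the Clec10a+ and Lzts1+ nuclei stood above these levels, and Casp1 in cDC2-like nuclei did not stand apart from them.

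**Figure D2:**
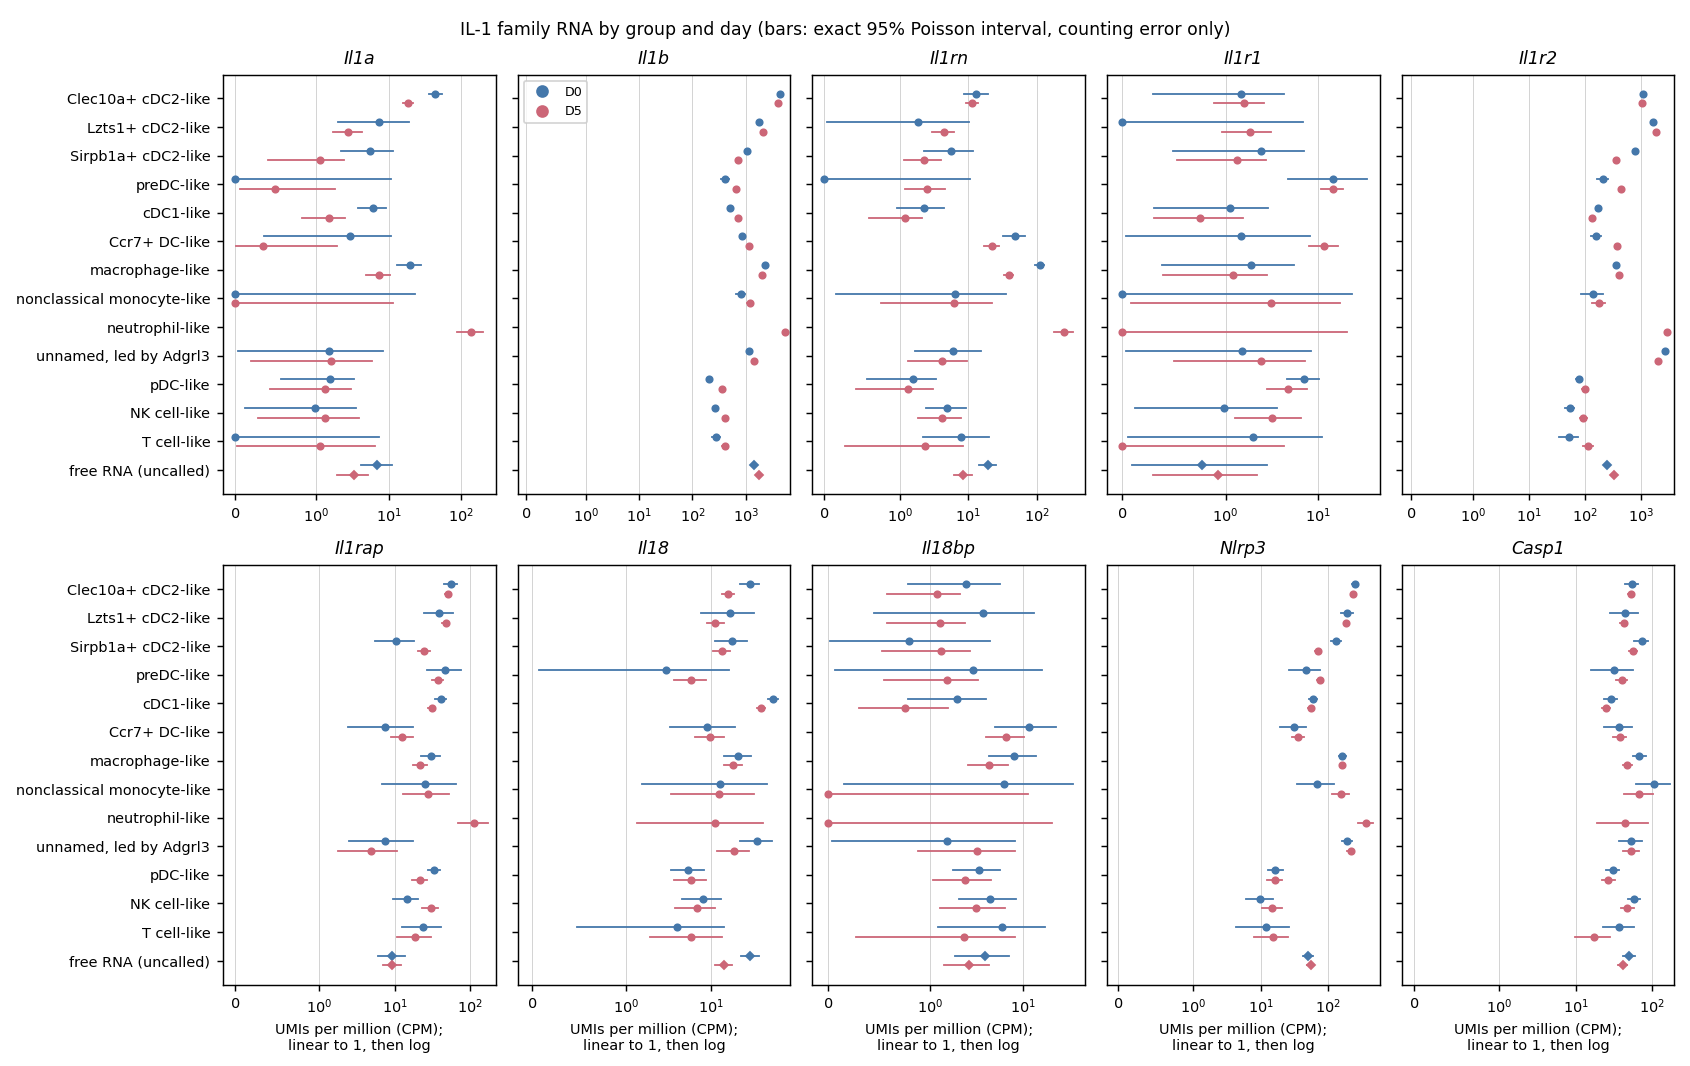
Level of each of the 10 genes in CPM by class or cDC2 state (log-like axis that is linear near 0), D0 in blue and D5 in red, with 95% exact intervals for counting error. Il1b runs from 4430 CPM in Clec10a+ nuclei to 203 CPM in pDC-like nuclei at D0, Il1rn peaks at 110 CPM in macrophage-like nuclei among the well-filled classes at D0, and Il1r1 reaches 14.2 CPM in preDC-like nuclei at D5.

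Day 5 was next compared with day 0 inside each class. The make-up of the cDC2-like class itself differed between the libraries, since Clec10a+ nuclei were 45.6% of it at D0 and 32.6% at D5, Sirpb1a+ nuclei 29.9% and 20.4%, Lzts1+ nuclei 12.9% and 26.7% and preDC-like nuclei 8.79% and 15.7%, and its ratios hold this shift. In cDC2-like nuclei 5 of 10 genes were lower at D5 and none was higher, where 29.4% and 12.4% of all 13243 genes measured were lower and higher. The median of the 10 was -0.25, and that of all genes was -0.14. Il1a fell most, by 1.62 on the log2 scale (-1.97 to -1.26), followed by Il18 with -0.76 (-1.10 to -0.41). Il1b was at -0.28 (-0.30 to -0.25), Casp1 at -0.23 (-0.43 to -0.03) and Nlrp3 at -0.22 (-0.33 to -0.11), whereas Il1r2 was at 0.04 (-0.01 to 0.09). With the TMM scaling, which assumes that most genes do not change and moves every ratio of this comparison by 0.25, Il1a (-1.37) and Il18 (-0.51) remained lower. Under it Il1b came to -0.02, Nlrp3 turned to 0.03 and Casp1 to 0.02, and Il1r2 and Il1rap became higher at 0.29 and 0.38, so for these 5 genes no direction is given, and 14.9% and 27.6% of all genes were then lower and higher. With free RNA subtracted, Il18 turned to 0.97. Free RNA itself held less Il1a and Il18 at D5, as given above, and neutrophil markers in cDC2-like nuclei summed to 11.8 CPM at D0 (5 of 7 found) and 33.8 CPM at D5 (7 of 7). In the same nuclei cDC1 markers (9 of 9) summed to 1188 and 724 CPM, NK markers (7 and 8 of 8) to 463 and 209 CPM, Clec10a+ markers (5 of 5) to 1551 and 1166 CPM and classical monocyte markers (7 of 7) to 1012 and 1304 CPM. The part of any of these in the ratios was not tested.

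The lower Il1a was also seen within Clec10a+ nuclei, where it was at -1.24 (-1.62 to -0.86), and at -0.98 with TMM scaling. In these nuclei 3 of 8 measured genes were lower, beside 23% of all genes, and 0 higher, beside 11.7%. With TMM scaling 2 were lower and 3 higher, beside 11.3% and 24.8% of all genes, the latter being Il1b at 0.11, Il1r2 at 0.20 and Nlrp3 at 0.19. At the finer resolution of 0.8, nuclei led by Mir155hg and Tnip3 fell into a cluster of 744 D0 and 321 D5 nuclei and another of 213 and 2441, so the nuclei of the 2 days lie largely in different clusters there. The other cDC2 states differed from each other in Il1b and Il1r2. Il1b was at -0.15 (-0.18 to -0.11) in Clec10a+ nuclei, which turned to 0.11 with TMM scaling, at 0.23 (0.13 to 0.32) in Lzts1+ nuclei and at 0.67 (0.43 to 0.92) in preDC-like nuclei. In preDC-like nuclei 2 of 7 measured genes were higher, Il1b and Il1r2 with 1.07 (0.73 to 1.44), beside 5.37% of all genes, and 0 were lower, beside 14.5%. Both preDC-like Il1b levels lay below free RNA, which had 1413 and 1770 CPM, and NK cell-like nuclei were at 0.67 too. The part of free RNA in the preDC-like ratios was not tested. In Lzts1+ nuclei the same 2 of 8 were higher, and 0 lower, beside 5.85% and 16.2%, with Il1r2 at 0.18 (0.08 to 0.28). Sirpb1a+ nuclei went the other way, with 4 of 6 measured genes lower, beside 20.1% of all genes. There Il1r2 was at -1.16 (-1.28 to -1.05), Nlrp3 at -0.88 (-1.14 to -0.60) and Il1b at -0.55 (-0.64 to -0.46), and these 3 remained lower with TMM scaling at -0.92, -0.63 and -0.31. At resolution 0.8 no Sirpb1a+ state was found, and nuclei led by Hspa1a and Hspa1b fell into a cluster of 551 D0 and 405 D5 nuclei and another of 137 and 1591, so this comparison too may set different clusters against each other. Il1rap in Sirpb1a+ nuclei, with 10.3 and 24.6 CPM, was higher at D5 with a log2 interval of 0.42 to 2.20, beside 9.21% of all genes.

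In cDC1-like nuclei Il1b was higher at D5, with 504 and 726 CPM and a ratio of 0.53 (0.45 to 0.60), while Il1a, Il1r2, Il1rap and Il18 were lower. Neutrophil markers (6 of 7 found on each day) summed to 7.82 and 27.8 CPM in these nuclei, and cDC1 markers (9 of 9) to 6724 and 5236 CPM. NK markers (7 and 8 of 8) were at 390 and 191 CPM there, classical monocyte markers (7 and 6 of 7) at 1066 and 1420 CPM and biliary markers (4 and 5 of 6) at 28.2 and 56.5 CPM, and the part of these in the ratios was not tested. That makes, for Il1b and the other members, 1 of 7 measured genes higher and 4 lower, beside 10.7% and 34.7% of all genes. With TMM scaling, which shifted these ratios by 0.30, of the 4 lower genes 1 stayed lower, Il1a at -1.72, beside 15.6% of all genes, and without doublet removal Il1r2 turned from -0.39 (-0.53 to -0.24) to 0.38. The rise of Il1b had counterparts in classes that are not typical sources, since NK cell-like nuclei were at 0.67 (0.51 to 0.82) and pDC-like nuclei at 0.81 (0.69 to 0.94), and the part of free RNA in it was not tested. Counted over the members, NK cell-like nuclei had 3 of 6 measured genes higher and 0 lower (8.73% and 22.9% of all genes), pDC-like nuclei 2 of 8 higher and 1 lower (8.7% and 21.9%), T cell-like nuclei 2 of 4 higher and 1 lower (6.15% and 13.9%), and Il1b was among the higher genes of each. With TMM scaling T cell-like nuclei had 0 lower, beside 7.14% of all genes. Nonclassical monocyte-like nuclei had 2 of 4 measured genes higher, Il1b at 0.55 (0.26 to 0.85) and Nlrp3 at 1.14 (0.18 to 2.23), and 0 lower, beside 6.36% and 11% of all genes. Their own nonclassical monocyte markers (7 of 7) summed to 1679 and 1134 CPM, neutrophil markers (1 and 3 of 7) to 50.1 and 121 CPM, NK markers (4 and 5 of 8) to 639 and 313 CPM and endothelial markers (3 and 2 of 6) to 194 and 93 CPM, and their part in these ratios was not tested. The unnamed cluster had 1 of 5 higher, Il1b, and 1 lower, Il1r2, beside 8.5% and 16.6%.

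In macrophage-like nuclei the antagonist gene was lower at D5. Il1rn fell from 110 to 38.7 CPM, a ratio of -1.51 (-1.83 to -1.19), and with TMM scaling it was at -1.17. Il1a was at -1.42 (-2.19 to -0.65), Casp1 at -0.52 (-0.86 to -0.17) and Nlrp3 at -0.03, and Il1b at -0.21 (-0.26 to -0.15) turned to 0.13 with TMM scaling. In all, 4 of 9 measured genes were lower and 1 higher, beside 27.4% and 7.87% of all genes. With TMM scaling 2 were lower and 3 higher, beside 10.5% and 22.3% of all genes, as the interval of Casp1 (-0.18) then spans 0 and Nlrp3 was higher at 0.31 (0.10 to 0.53). Macrophage markers summed to 1161 CPM at D0 (8 of 9 found) and 1491 CPM at D5 (9 of 9). Markers of other cells moved in the same nuclei, with hepatocyte markers (7 of 7) at 94.1 and 25.7 CPM, NK markers (8 and 7 of 8) at 496 and 199 CPM, cDC1 markers (9 of 9) at 1179 and 756 CPM, classical monocyte markers (7 of 7) at 1909 and 1649 CPM and biliary markers (4 and 5 of 6) at 23.2 and 85.0 CPM. Their part in the Il1rn and Il1a ratios was not tested, and Il1rn in free RNA was 19.4 and 8.34 CPM. In Ccr7+ DC-like nuclei Il1rn was also lower, at -1.10 (-1.73 to -0.44), the only gene lower of 9 measured, beside 14.2% of all genes. There Il1r2, Il1b and Il1r1 were higher, at 1.23 (0.94 to 1.53), 0.42 (0.29 to 0.55) and 2.97 (0.39 to 8.31), the last from 1 UMI at D0, beside 8.29% of all genes. Ccr7+ DC markers in these nuclei (9 of 9 found on each day) summed to 7668 and 4933 CPM, Clec10a+ markers (4 of 5) to 119 and 197 CPM and neutrophil markers to 7.36 CPM (3 of 7) and 34.2 CPM (6 of 7). NK markers (8 and 6 of 8) were at 550 and 262 CPM, T cell markers (9 of 9) at 165 and 60.7 CPM, cDC1 markers (9 of 9) at 1262 and 939 CPM and hepatocyte markers (6 of 7) at 39.7 and 20.2 CPM, and the part of all these in the ratios was not tested.

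**Figure D3:**
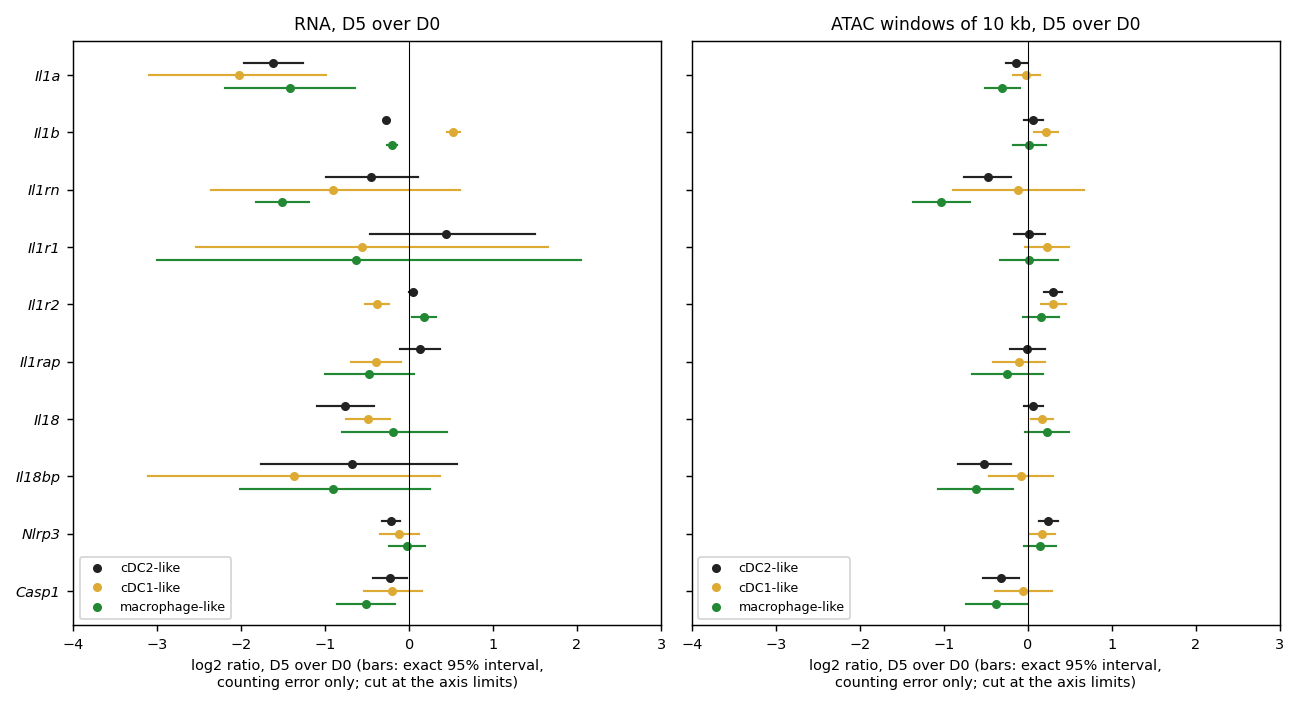
Log2 ratio of D5 over D0 for the 10 genes in cDC2-like, cDC1-like and macrophage-like nuclei, with 95% exact intervals for counting error. The left panel shows RNA and the right panel the 10 kb windows of open chromatin. A ratio above 0 means higher at D5. In RNA, Il1a in cDC2-like nuclei (-1.62) and Il1rn in macrophage-like nuclei (-1.51) lie far below 0.

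The study follows precursors of dendritic cells and resident cDC2 during DDC feeding, and preDC-like nuclei were therefore set against Clec10a+ nuclei. The states were drawn from other genes of the same nuclei, so the ratios describe them and test nothing. At D5, preDC-like nuclei were lower than Clec10a+ nuclei in 8 of 9 measured genes and higher in 1, where 12.9% and 43.1% of all 11557 genes were lower and higher, with medians of -1.46 for the members and 0.31 for all genes. The ligand, decoy and sensor genes were lower: Il1b was at -2.61 (-2.67 to -2.55), Nlrp3 at -1.64 (-1.82 to -1.47), Il18 at -1.46 (-2.16 to -0.82) and Il1r2 at -1.27 (-1.34 to -1.20). Il1a was lower on 2 UMIs against 175, and Il1rn was at -2.17 (-3.27 to -1.24). Casp1 and Il1rap differed least, at -0.40 (-0.66 to -0.14) and -0.46 (-0.74 to -0.19), and Il1rap turned to 0.06 when the states were drawn at a finer resolution. The exception was Il1r1, higher in preDC-like nuclei at 3.16 (2.32 to 4.09). TMM scaling shifted these ratios by -0.42 and turned none of the 9, with Il1r1 at 2.74 and Il1b at -3.03. Under it 31.7% and 16.7% of all genes were lower and higher, so the shares of all genes depend on the scaling. At D0 the contrast had the same directions for Il1b (-3.43), Nlrp3 (-2.41), Il1r2 (-2.40) and Il1r1 (3.32, from 5 and 3 UMIs, too few to count as measured), with 6 of 8 measured genes lower and 0 higher, beside 10.9% and 26.9% of all genes.

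The other states were read against Clec10a+ nuclei in the same way. In Lzts1+ nuclei Il1r2 was higher, at 0.58 (0.47 to 0.70) at D0 and 0.82 (0.78 to 0.86) at D5, while Il1b was lower, at -1.31 and -0.94 (-0.97 to -0.91), and both directions stayed with TMM scaling. At D5, 6 of 10 genes were lower and 1 higher, beside 10% and 25.5% of all genes, and at D0 4 of 8 were lower and 1 higher, beside 7.63% and 14.7%. Sirpb1a+ nuclei at D5 were lower in 6 of 9 measured genes and higher in 0, beside 11.9% and 44.2% of all genes, with Il1b at -2.50, Nlrp3 at -1.72 and Il1r2 at -1.56, whereas Casp1 was at 0.10 with an interval that spans 0. At D0 5 of 8 were lower and 1 higher, Casp1 at 0.42 (0.01 to 0.83), beside 10.2% and 26.1%, and with TMM scaling the interval of Casp1 spans 0. Under TMM scaling Lzts1+ nuclei at D5 had 7 genes lower and 1 higher, beside 18.7% and 11% of all genes. Sirpb1a+ nuclei at D5 had 7 and 0, beside 25.5% and 19.4%. For D0 it gave 5 and 1 beside 14.4% and 5.99% in Lzts1+, and 7 and 0 beside 19.4% and 11.1% in Sirpb1a+ nuclei.

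**Figure D4:**
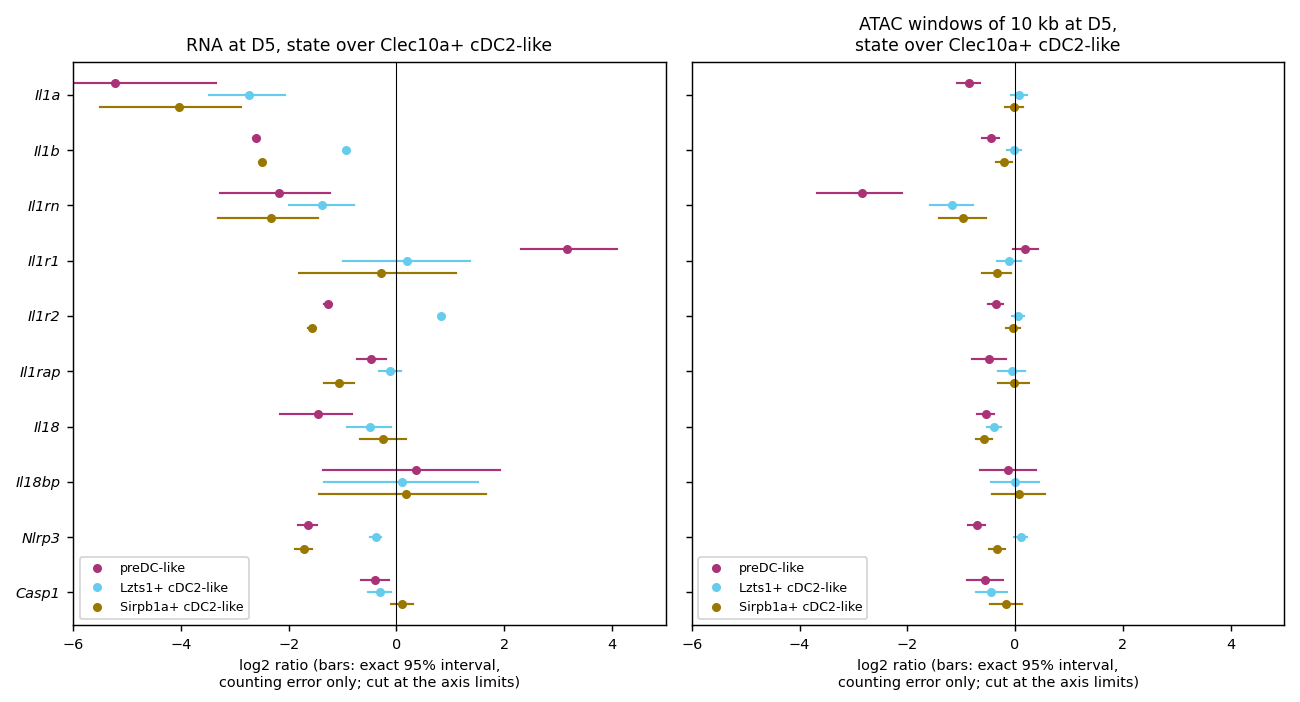
Log2 ratio of preDC-like, Lzts1+ and Sirpb1a+ nuclei over Clec10a+ nuclei at D5 for the 10 genes, with 95% exact intervals for counting error. The left panel shows RNA and the right panel the 10 kb windows of open chromatin. In RNA, Il1r1 is at 3.16 in preDC-like nuclei and Il1r2 at 0.82 in Lzts1+ nuclei. Il1b RNA lies below 0 in the preDC-like, Lzts1+ and Sirpb1a+ states.

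The 2 main classes of conventional dendritic cells differed in nearly the whole system. At D5 cDC2-like nuclei were higher than cDC1-like nuclei in 8 of 10 genes and lower in 1, beside 24.4% and 29.4% of all genes. Il1r2 stood at 2.94 (2.86 to 3.03), Il1b at 1.64 (1.60 to 1.68) and Nlrp3 at 1.54, and the gene lower in cDC2-like nuclei was Il18, at -1.60 (-1.82 to -1.38). At D0 Il1b was at 2.44, Il1r2 at 2.52 and Il18 at -1.32, with 6 of 8 measured genes higher and 1 lower, beside 18.2% and 27.5% of all genes. TMM scaling left these counts the same, beside 27.8% of all genes higher and 25.2% lower at D5, and 22.8% and 20.6% at D0. Against Clec10a+ nuclei, macrophage-like nuclei were higher in Il1rn, at 3.08 (2.49 to 3.72) at D0 and 1.78 (1.42 to 2.15) at D5, and in Il18bp at D5, at 1.90 (0.74 to 3.13), which makes 2 of 10 genes higher and 5 lower at D5, beside 27.1% and 14.4% of all genes. At D0 1 of 8 measured genes was higher and 5 were lower, beside 29.4% and 12.4%. With TMM scaling macrophage-like nuclei had 2 higher and 6 lower at D5, beside 16.8% and 22.9% of all genes. The D0 counts were then 1 and 6, beside 16.9% and 19.8%.

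Open chromatin was then read in the same nuclei, with the classes taken from RNA. A peak count was divided by 2 to give fragments, which were scaled to a total of 1000000 fragments in shared peaks (fragments per 1000000, FPM). Each gene had 2 to 10 peaks in its window, and the Il1r2 window also held the start of Gm16894, that of Il1b the start of Il1bos and that of Il18 the starts of Bco2 and Tex12, so those sums are not specific to 1 gene. In cDC2-like nuclei the Il1r2 window went from 112 to 138 FPM, a ratio of 0.30 (0.20 to 0.40), and that of Nlrp3 from 96.4 to 114, at 0.24 (0.13 to 0.35). The Il1b window as a whole was level, at 0.07 (-0.04 to 0.18), with 1 of its 3 peaks higher and 1 lower. The windows of Il18bp, Il1rn, Casp1 and Il1a were lower, at -0.52, -0.48, -0.32 and -0.14. By peaks, 11 of 51 were higher and 9 lower, beside 6.52% and 10.9% of all shared peaks. With TMM scaling, which moves these ratios by 0.11, the windows of Il1a (-0.03) and Casp1 (-0.21) were no longer lower and those of Il1b (0.18) and Il18 (0.18) were higher, which makes 2 lower and 4 higher, and with windows of 2 kb Casp1 turned to 0.05. The shares of peaks do not apply to these counts of windows, and no share over the windows of all genes was computed. In cDC1-like nuclei 3 of 45 measured peaks were higher and 0 lower, beside 4.8% and 6.67%, with the windows of Il1b at 0.22 (0.08 to 0.36) and Il1r2 at 0.30 (0.16 to 0.45). Within the cDC2 states, 5 of 38 measured peaks were higher and 0 lower in Lzts1+ nuclei at D5, beside 2.82% and 3.39%, and 5 of 39 were higher and 1 lower in Sirpb1a+ nuclei, beside 4% and 4.11%. Clec10a+ nuclei had 3 of 45 higher and 5 lower, beside 5.25% and 6.69%, and preDC-like nuclei 0 of 33 in either direction, beside 2.67% and 3.49%.

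Chromatin near Il1r2 did not follow its RNA in every state. In Sirpb1a+ nuclei the Il1r2 window went from 115 to 140 FPM, at 0.28 (0.08 to 0.48), and that of Nlrp3 from 82.0 to 99.0 FPM, at 0.27 (0.03 to 0.52), whereas the RNA of both was lower at D5, at -1.16 and -0.88. The peak at the Il1r2 start, chr1:40084159-40085107, had 41.3 FPM at D0 and 53.8 at D5 in Clec10a+ nuclei, and 45.4 and 59.3 in Lzts1+ nuclei, a state whose Il1r2 RNA was higher. Over the whole window Lzts1+ and Clec10a+ nuclei differed by 0.06 (-0.05 to 0.17) at D5, an interval that spans 0, although their Il1r2 RNA differed by 0.82. A peak centred 1394 bases upstream of that start, chr1:40082927-40083681, had 13.3 and 16.6 FPM in Clec10a+ nuclei, 8.3 and 8.8 in preDC-like nuclei and 2.0 and 3.1 in cDC1-like nuclei. The Il1rn window in macrophage-like nuclei went from 58.4 to 28.6 FPM, at -1.03 (-1.37 to -0.69), the same direction as its RNA. Its start site peak chr2:24344819-24345735 went from 23.1 to 11.9 there and had 6.5 and 6.8 in Clec10a+ nuclei. In macrophage-like nuclei 9 of 41 measured peaks were lower and 3 higher, beside 5.84% and 5% of all peaks.

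Between preDC-like and Clec10a+ nuclei at D5, 23 of 46 measured peaks were lower in preDC-like nuclei and 3 higher, beside 16% and 21.3% of all peaks. The Il1rn window differed most, with 2.93 against 21.0 FPM, at -2.84 (-3.67 to -2.10), followed by Il1a at -0.86 and Nlrp3 at -0.71 (-0.88 to -0.55). The Il1b window differed by less, at -0.45 (-0.61 to -0.29), than its RNA did, at -2.61. Within it, the peak at the Il1b start, chr2:129370723-129371652, which spans the promoter printed above, was at -1.44 (-2.03 to -0.90). The Il1r1 window as a whole was at 0.19 (-0.05 to 0.42), but 1 of its peaks, chr1:40270841-40271755, centred 4712 bases downstream of the second start site, was at 2.94 (2.14 to 3.83) on 66 against 16 fragments. It had 14.9 and 12.1 FPM in preDC-like nuclei followed by pDC-like nuclei with 5.94 and 7.36, while Clec10a+ nuclei had 1.27 and 1.57. The peak chr1:40262678-40263585 before the same start was also higher, at 1.01 (0.51 to 1.51), while the peak chr1:40230073-40230997 and the peak chr1:40224529-40225454, both near the first start site, were lower, at -1.32 and -0.71 (-1.41 to -0.06). Of the 6 Il1r1 peaks 2 were thus higher and 2 lower, with a median of 0.06. At D0, 14 of 35 measured peaks were lower and 0 higher, beside 12.1% and 10.4%.

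**Figure D5:**
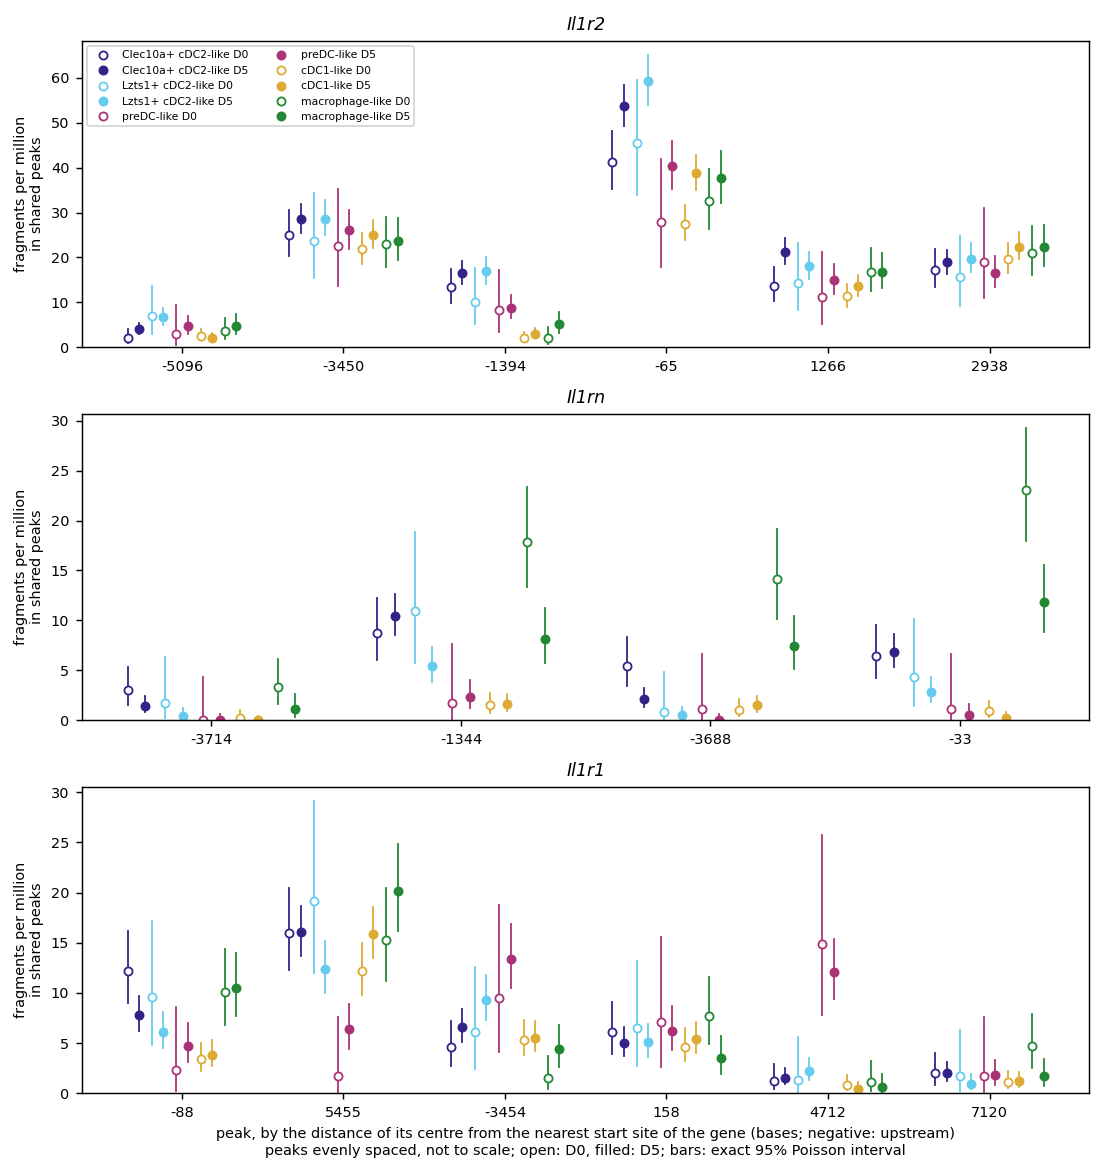
FPM (fragments per 1000000) in the peaks near Il1r2, Il1rn and Il1r1 by state or class (open symbols D0, filled symbols D5), peaks named by the distance of their centre from a start site in bases. The Il1r1 peak at 4712 has 14.9 and 12.1 in preDC-like nuclei, and the Il1rn peak at -33 has 23.1 at D0 and 11.9 at D5 in macrophage-like nuclei.

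The other contrasts were read in the same way. Lzts1+ nuclei had 11 of 48 measured peaks lower than Clec10a+ nuclei and 7 higher at D5, beside 8.45% and 7.71% of all peaks, and 6 of 37 lower and 0 higher at D0, beside 4.45% and 3.42%. Sirpb1a+ nuclei had 16 of 46 lower and 4 higher at D5, beside 10.6% and 7.72%, and 10 of 37 lower and 0 higher at D0, beside 7.12% and 4.06%. The cDC2-like nuclei had 22 of 51 peaks higher than cDC1-like nuclei and 10 lower at D5, beside 19.6% and 25%, and 19 of 48 higher and 4 lower at D0, beside 15.6% and 20.8%. Their Il1b windows differed by -0.03 (-0.13 to 0.07) at D5, an interval that spans 0, although Il1b RNA differed by 1.64, while the Il1rn window was at 1.87. Of the 3 Il1b peaks, 1 was higher in cDC2-like nuclei and 0 lower on each day. Macrophage-like nuclei had 8 of 44 measured peaks higher than Clec10a+ nuclei and 7 lower at D5, beside 11.5% and 13%, and 6 of 41 in each direction at D0, beside 10.6% and 11.6%.

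Further genes of IL-1 family signalling and inflammasomes were read from a list of 46, of which 42 were in the files. In cDC2-like nuclei, 22 of 37 measured were lower at D5 and 5 higher, with a median of -0.29, beside 29.4%, 12.4% and -0.14 for all genes, so the share of higher genes was near that of all genes. The lowest were Nlrp1b, another inflammasome sensor gene, at -1.82, Il1rl1, the receptor gene of IL-33, at -1.48, and Casp4, the gene of the caspase of the non-canonical inflammasome, at -1.15. The highest were Nlrp10 at 0.76 with an interval that spans 0, Il18rap, the accessory chain of the IL-18 receptor, at 0.64, and Pycard, the adaptor between NLRP3 and caspase-1, at 0.58 (0.44 to 0.73). Between preDC-like and Clec10a+ nuclei at D5, 12 of 36 were lower and 14 higher, with a median of 0.17. Beside them stood 12.9%, 43.1% and 0.31 for all genes, so the share of higher genes was near that of all genes at this scaling. With TMM scaling 31.7% and 16.7% of all genes were lower and higher here, and 14.9% and 27.6% in the cDC2-like comparison. The list was not counted again under it. Nlrp1b (-2.35), Nlrp1a (-1.87) and Mefv (-1.81), which encode sensors, were lowest, and Il1rl2, the receptor gene of IL-36 (2.49), Panx1 (1.15) and Peli2 (1.13) were highest.

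The genes most like Il1b over 41 profiles of class and day were Tnip3 (Pearson's r of 0.871), Cd74 (0.856) and Mcemp1 (0.853), on the log2 scale of CPM. For Il1r2 they were its neighbour Gm16894 (0.896), H2-DMb2 (0.865) and Cd80 (0.828), and for Il1rn Slc7a11 (0.803), Tarm1 (0.777) and Arg2 (0.765). The profiles share 2 libraries, their depth and their free RNA, so these values are descriptions over classes.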

How the data were processed

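RNA and open chromatin of sorted liver nuclei were analysed from 1 library at D0 and 1 at D5. The deposited tables hold raw counts of UMIs per gene and of cut sites per peak, with peaks called per library. Their labels give Cell Ranger ARC 2.0.2 on mm10, while the matrix headers name both cellranger-arc 2.0.2 and cellranger 6.0.2. The RNA came from nuclei, so levels are nuclear, and whether intronic reads were counted is not given in the sources used here. Peaks of both libraries that overlapped were merged, and peak counts were divided by 2. Barcodes of the joint D5 table were matched to the RNA table by their counts.

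Nuclei with at least 1000 UMIs, at most 10% mitochondrial UMIs and a Scrublet score under 0.2 were kept; this removed 23.1% and 25.5% as doublets, while the automatic threshold called 42.0% and 9.99%. They were clustered with scanpy 1.11.5 (2000 variable genes, 30 components, 15 neighbours, Leiden resolution 1, and 0.5 for cDC2 states). Classes were named from at least 3 markers. Of the cDC2 states, preDC-like and Clec10a+ were named from their marker lists, and the others from 1 of their 10 leading genes. UMIs were summed per class and day. Intervals are exact (Poisson for levels, binomial for ratios and shares, 95%), a level of 0 is given the limit of 3 counts, and all cover counting error only. TMM factors came from edgeR 4.0.16. Ratio scripts were tested on simulated data. All 10 member genes are reported, with the extremes of the wider list and the 3 most alike genes. The members and lists were chosen with earlier results of these data known. Alternatives were other UMI, doublet and resolution settings, TMM, free RNA subtraction and a 2 kb window.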

Additional observations from a re-analysis of the deposited data

Results flagged for a closer look

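In 7 cases, over 5 pairs of the dendritic cell classes and cDC2 states, the D5 over D0 ratios of 1 gene went in opposite directions. Each rests on 1 library per day, the difference was not tested, and other classes were not paired. For Il1b, cDC1-like nuclei (0.53) stood 0.80 above cDC2-like nuclei (-0.28) on the log2 scale. Among the cDC2 states, the Il1b ratio of Clec10a+ nuclei (-0.15) was lower than that of Lzts1+ nuclei (0.23), a difference of -0.37, and lower than that of preDC-like nuclei (0.67), a difference of -0.82. Lzts1+ nuclei stood 0.78 above Sirpb1a+ nuclei (-0.55), and Sirpb1a+ less preDC-like nuclei gave -1.22. With TMM scaling Il1b was at 0.11 in Clec10a+, 0.57 in Lzts1+ and 1.08 in preDC-like nuclei, so neither of the first 2 pairs of states kept opposite directions, and it was at -0.02 in cDC2-like nuclei, for which no direction is given, so the opposition to cDC1-like nuclei was lost too. For Il1r2, Lzts1+ nuclei (0.18) stood 1.35 above Sirpb1a+ nuclei (-1.16), and Sirpb1a+ less preDC-like nuclei (1.07) gave -2.24. Il1b was also higher at D5 in NK cell-like nuclei (260 and 412 CPM) and in free RNA (1413 and 1770 CPM), and the part of free RNA in these differences was not tested.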

How the results depend on the processing

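With TMM scaling, cDC2-like nuclei had 2 genes lower and 2 higher at D5 in place of 5 and 0, beside 14.9% and 27.6% of all genes. In cDC1-like nuclei 1 was lower in place of 4, beside 15.6%. In chromatin the cDC2-like windows had 2 lower and 4 higher in place of 4 and 2, and no share over the windows of all genes was computed. With at least 1500 UMIs per nucleus, and without preDC-like nuclei, 1 gene was higher in cDC2-like nuclei, and without doublet removal 2 were higher in cDC1-like nuclei in place of 1. Directions turned for Nlrp3 (0.0334) and Casp1 (0.0212) in cDC2-like nuclei with TMM scaling, for Il18 there with free RNA subtracted (0.97), for Il1r2 in cDC1-like nuclei without doublet removal (0.38), for Il1rap between preDC-like and Clec10a+ nuclei at resolution 0.8 (0.0582), for Il1b in Clec10a+ (0.11) and macrophage-like nuclei (0.13) with TMM scaling, and for the Casp1 window of 2 kb in cDC2-like nuclei (0.0478) and between preDC-like and Clec10a+ nuclei (0.15). Of the further comparisons named in the report, TMM scaling moved counts by at least 1.5 times as follows. At D5 against D0 it gave macrophage-like nuclei 2 genes lower and 3 higher in place of 4 and 1, beside 10.5% and 22.3% of all genes. Clec10a+ nuclei had 2 and 3 in place of 3 and 0, beside 11.3% and 24.8%. In preDC-like nuclei 3 were higher in place of 2, beside 17%, and in the unnamed cluster 2 in place of 1, beside 14.4%. T cell-like nuclei had 0 lower in place of 1, beside 7.14%. Sirpb1a+ over Clec10a+ nuclei at D0 had 0 higher in place of 1, beside 11.1%. Counts that moved by less include Sirpb1a+ over Clec10a+ (7 lower in place of 5) and preDC-like over Clec10a+ nuclei (8 in place of 6) at D0. Beside them, 19.4% of all genes were lower in place of 10.2%, and 23.8% in place of 10.9%. The cause was not tested. Of the other ratios of single genes or windows, 280 stayed within the interval of the main value and 60 moved. Where that interval spans 0, a ratio that stayed within it may still have changed direction. Ratios that were not finite were left out. Of the counts of lower or higher genes and windows in the main comparisons, 70 stayed within 1.5 times and 8 moved. Subtracting the NK cell-like level, and TMM scaling of the further comparisons, were chosen after seeing the data. No paired analysis was possible because each day has 1 library and no test was run. Depth limits Il1r1, Il1a, Il1rn and Il18bp, which had few UMIs in most classes.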
